A study of Mus musculus with 12 samples.

Results

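The genes described here are those of the eukaryotic translation initiation factors (eIFs), measured by RNA-Seq in mouse oocytes that carried or lacked a defect of Dpagt1. They were taken as all genes of the deposited table whose symbol starts with Eif and a digit, with Eif4e and Eif4e1b left out, which gave 53 of 24255 genes. DPAGT1 is the enzyme that starts the assembly of the lipid-linked glycan used for protein N-glycosylation in the endoplasmic reticulum. All 12 libraries were made by Smart-seq2, which amplifies full-length cDNA from few cells, each from 20 fully grown oocytes at the germinal vesicle (GV) stage. The females were C57BL/6 mice (C57BL/6J in the methods of the study) aged 3 weeks that had been primed with 5 IU of PMSG, a gonadotropin that drives follicle growth, 46 h before collection.

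Each of the 4 groups had 3 libraries. The WT group (replicates 4 to 6) carried no Dpagt1 change. The MUT group (replicates 1 to 3) carried the ENU-induced missense change D166G in Dpagt1 in every tissue. The GcKO group (replicates 1 to 3) was Dpagt1F/F Gdf9CRE/+, in which the Cre transgene removes the floxed gene in oocytes. The AmcKO group (replicates 4 to 6) was Dpagt1F/F Amhr2CRE/+, in which Cre acts in granulosa cells, so that the oocytes measured are not the cells targeted. The labels describe no floxed females without Cre, and the WT libraries were the only reference for all 3 other groups. Replicate numbers separate MUT and GcKO (1 to 3) from WT and AmcKO (4 to 6), so any batch that followed the numbers cannot be told apart from the difference of MUT and GcKO from WT. The labels do not say whether the 3 libraries of a group came from separate animals, and p-values measure only the spread between these libraries.

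Translation of most mRNAs starts when a small ribosomal subunit loaded with eIF1, eIF1A, eIF3, eIF5 and the eIF2-GTP-initiator tRNA complex is recruited to the capped mRNA by the eIF4 factors and scans to a start codon. eIF2B then recycles eIF2 by exchanging its GDP for GTP, and kinases that phosphorylate the alpha subunit of eIF2 turn it into an inhibitor of eIF2B. A fully grown oocyte is nearly silent in transcription and depends on translation of stored mRNAs for maturation, so the initiation factors and the proteins that hold back the cap-binding protein take part in choosing which stored mRNAs are used.

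FPKM values, which are fragment numbers relative to transcript length and to a scale set for each library, were compared. They are scaled by transcript length, so levels of different genes can be set side by side, but they hold no counts and the depth behind a value is unknown. A value of 0 may be an estimate that failed. WT libraries summed to 1167362 to 1226005 FPKM over all genes, MUT libraries to 589617 to 611597, GcKO libraries to 482314 to 684212 and AmcKO libraries to 883256 to 1107925. For genes above 0 in all 12 libraries, the median ratio to their geometric mean (size factor) was 1.01 to 1.03 in every library. The deposited values thus already shared a common median scale, although their sums differed. WT libraries had 9359 to 9622 genes above 0, MUT libraries 11208 to 11467, GcKO libraries 10733 to 11608 and AmcKO libraries 10399 to 10921. Dpagt1 itself was listed at 0 in all WT and AmcKO libraries, at 0.88, 0.41 and 0.98 FPKM in MUT and at 0, 0.37 and 0 FPKM in GcKO, so its level does not check the labels. All 9 oocyte markers examined were present in every group, but not at equal levels on the deposited scale. Called lower than WT in MUT were Zp2 (-1.09), Zp3 (-0.52) and Oosp1 (-0.88; limma, adjusted p = 0.00215, 0.0489 and 0.00408). The GcKO calls were Zp2 (-0.74) and Oosp1 (-0.98), both lower (adjusted p = 0.0195 and 0.00207), and AmcKO had none. The smallest WT sum over the oocyte markers, 10847 FPKM, exceeded the largest of each other group (MUT 8698, GcKO 8922, AmcKO 9840). Of 12 granulosa cell markers, 3 (Amh, Amhr2 and Foxl2) were at 0 in all 12 libraries and 6 stayed under 1 FPKM. Summed over these markers, WT libraries held 17.6 to 23.1 FPKM, MUT libraries 16.4 to 28.3, GcKO libraries 15.6 to 28.3 and AmcKO libraries 11.8 to 22.7. Of the 6 markers tested 2 were higher and 0 lower in MUT and 0 were called in GcKO or AmcKO against WT. Cyp19a1, the most abundant, had 17.1, 20.1 and 15.1 FPKM in WT and 8.88, 9.49 and 13.4 in MUT and was not called (-0.68, limma, adjusted p = 0.185). Inha and Gja1 were listed at 0 in WT and called higher in MUT, with 5.44, 1.13 and 5.44 FPKM for Inha and 3.303, 2.35 and 4.26 FPKM for Gja1 (limma, adjusted p = 0.0026 and 0.000646). The part of such transcripts in the MUT results was not tested.

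A few initiation factors made up most of the initiation factor mRNA of WT oocytes. Eif1ax (904 ± 113 FPKM, mean ± SD, n = 3), Eif1b (893 ± 152) and Eif2b1 (761 ± 38.2) stood at the top, and the values of neighbours in this order overlapped. Together the 3 genes held 65.2% of the FPKM of all 53 members, the first 5 held 77.2% and the first 10 held 90.2%. The next in order were Eif5a at 299 ± 49.4 FPKM, below every value of Eif2b1, then Eif1 at 172 ± 29.7 and Eif2s2 at 162 ± 20.4, whose values overlapped. Eif4a2 (112 FPKM) lay above Eif4a1 (87.3 FPKM) in every WT library, Eif4a1 overlapped with Eif2s1 (82.4 FPKM), and Eif6 (70.0 FPKM) completed the first 10. At the other end, 8 members had a WT mean under 1 FPKM, 18 between 1 and 5, 12 between 5 and 20, 8 between 20 and 100, and 7 of at least 100.

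**Figure D1:**
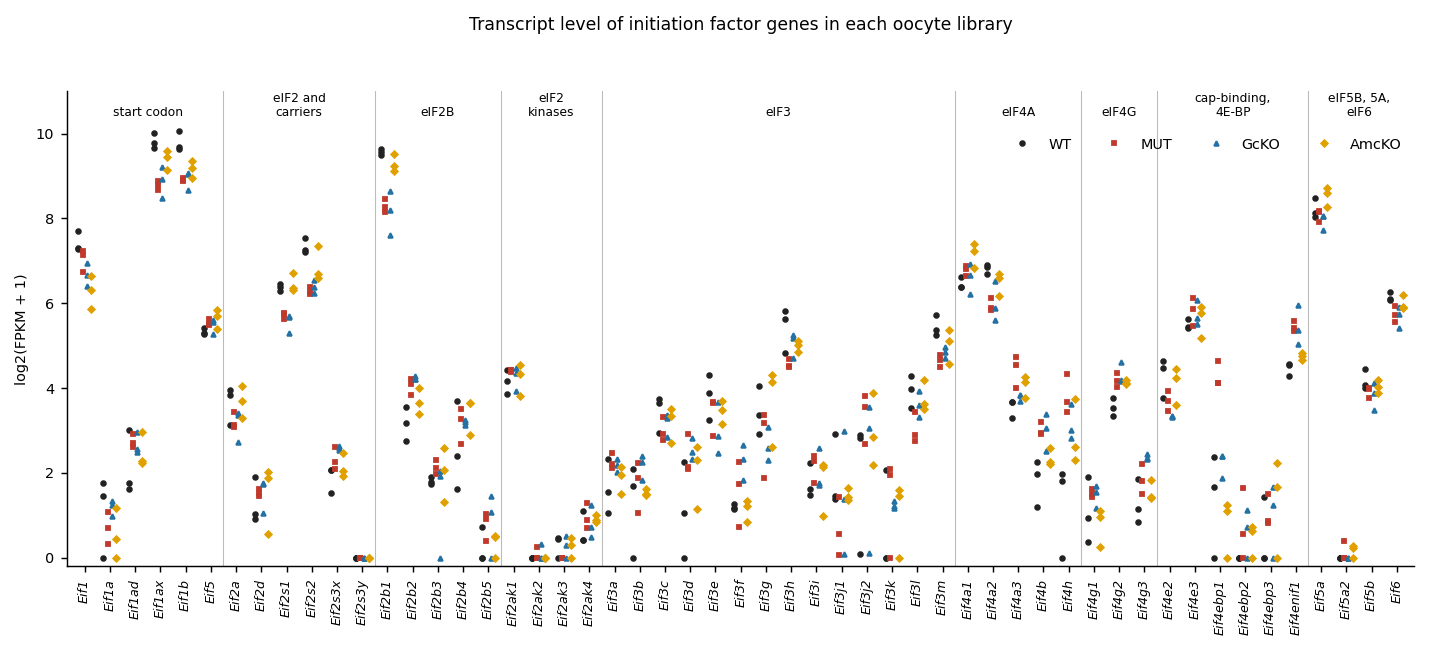
Levels of the 53 initiation factor genes as log2(FPKM + 1), grouped by role, with 1 point for each of the 12 libraries and 1 colour for each of the 4 groups. Eif1ax, Eif1b and Eif2b1 lie highest, and on the deposited scale their MUT and GcKO points lie below their WT points, whereas with the same FPKM sum Eif1b in both and Eif1ax in GcKO turn positive and Eif1ax in MUT is near 0 (-0.03).

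Subunits that work in 1 complex were not present at equal mRNA levels. In WT oocytes the FPKM of Eif2b1, the alpha subunit of the exchange factor eIF2B, was 33.2 to 66.7 times the summed FPKM of the other 4 eIF2B subunits. MUT libraries gave a ratio of 9.25 to 13.6, GcKO libraries 6.36 to 14.6 and AmcKO libraries 17.6 to 41.7, so that no MUT or GcKO library reached the lowest WT value. Neither did AmcKO replicates 4 (22.6) and 6 (17.6). Eif2b1 had a mean over 100 FPKM and the other 4 subunits had means under 20. Over all genes tested, the median log2 fold change against WT was -0.81 in MUT and -0.87 in GcKO at 100 FPKM or more. Between 5 and 20 FPKM it was 0.26 and 0.24, so smaller ratios of this kind were general in MUT and GcKO. The 14 genes of eIF3, the large scaffold on the small subunit, had WT means between 1.07 and 43.7 FPKM with a median of 3.73. By role, the start-codon group summed to 51.2% of the member FPKM in WT, eIF2B to 19.9%, the group of eIF5A, eIF5B and eIF6 to 9.88%, eIF2 with the other tRNA carriers to 6.64% and the eIF4A helicases with their cofactors to 5.48%. The eIF3 genes summed to 3.91%, the cap-binding relatives and 4E-binding proteins to 2.23%, the eIF2 kinases to 0.457% and the eIF4G scaffolds to 0.348%.

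Over all members, WT libraries summed to 3779 to 4164 FPKM, MUT libraries to 2385 to 2458, GcKO libraries to 2022 to 2653 and AmcKO libraries to 2930.2 to 3498. The MUT and GcKO sums did not overlap with WT, and neither did the AmcKO sums. As a share of the FPKM of all genes, the members went the other way, WT libraries giving 0.308 to 0.340%, MUT libraries 0.398 to 0.404%, GcKO libraries 0.388 to 0.419% and AmcKO libraries 0.316 to 0.343%. WT libraries had 43 to 46 members above 0, MUT libraries 48 to 50, GcKO libraries 48 to 49 and AmcKO libraries 47 to 50. The start-codon group made up most of the difference, with a mean of 2013 FPKM in WT, 1105 in MUT and 1121 in GcKO. The eIF2B sum was 778 FPKM in WT, 343 in MUT and 326 in GcKO. The cap-binding group had a larger mean sum in the mutants, with 87.5 FPKM in WT, 132 in MUT and 113 in GcKO, as had the eIF4G group with 13.6, 21.7 and 25.3 FPKM. In the cap-binding group GcKO overlapped with WT (141.8, 105.4 and 90.3 FPKM beside 83.9, 84.1 and 94.6). These sums were given without a test.

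**Figure D2:**
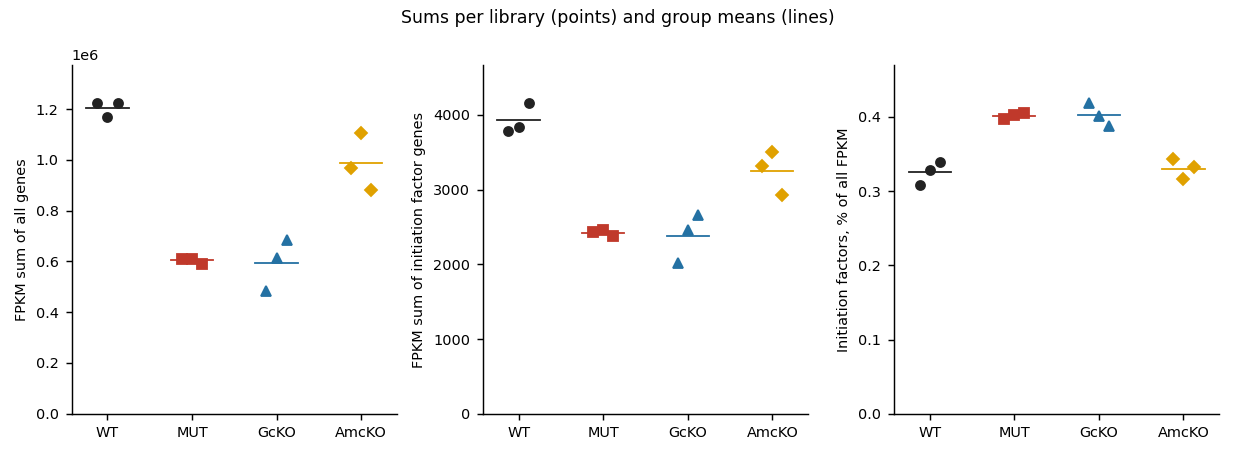
Sum of FPKM over all genes, sum over the 53 members, and the members' percent of all FPKM, with 1 point per library and lines at the group means. MUT and GcKO libraries lie below WT in both sums and above WT in the percent.

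Differences between groups were tested with limma on log2(FPKM + 1) over the 11233 genes that reached 1 FPKM in at least 1 library, and a member was called where the Benjamini-Hochberg adjusted p over all genes lay under 0.05. Fold changes on this scale understate the change of low transcripts. Of the 53 members 49 entered the fit. Eif2s3y, the Y-linked copy of the eIF2 gamma subunit, was at 0 in all 12 libraries, and Eif2ak2, Eif2ak3 and Eif5a2 stayed under 1 FPKM. In these pooled oocytes, loss of a transcript from some cells and less of it in every cell cannot be told apart.

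In MUT against WT oocytes, 9 of 49 members (18.4%) were called lower and 7 (14.3%) higher, beside 11.3% lower and 9.46% higher among all genes tested (20.8% called in all), and 6 of the 9 lower ones changed sign when libraries were scaled to the same FPKM sum. In GcKO against WT, which shares the WT libraries, 8 members (16.3%) were called lower and 6 (12.2%) higher, beside 11.4% and 8.71% of all genes (20.2% in all), and again 6 of the 8 lower ones changed sign under that scaling. The median log2 fold change of the members was 0.32 in MUT and 0.18 in GcKO, beside 0.12 over all genes tested in each. In AmcKO against WT, 0 members were called, beside 0.214% of all genes, with a member median of 0.12 and a median of 0.03 over all genes. At an unadjusted p under 0.05 the members numbered 19 in MUT (38.8%, beside 34.1% of all genes tested), 20 in GcKO (40.8%, beside 33.7%) and 8 in AmcKO (16.3%, beside 15.6%). Counts per role and per list, given below, rest on 14 tested genes or fewer each. They are to be read beside the shares called among all genes, and differences between roles were not tested.

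The libraries of MUT and GcKO had lower FPKM sums, so scaling decides the zero line. With median-of-ratios scaling, by the size factors above, 9 members were lower and 7 higher in MUT and 8 and 6 in GcKO. Beside them stood 11.5% lower and 9.36% higher among all genes in MUT and 11.6% and 8.63% in GcKO. Those factors were all close to 1, so this scaling could hardly change the calls. With every library scaled to the same FPKM sum, the median of all genes tested moved to 0.71 in MUT, 0.74 in GcKO and 0.21 in AmcKO, and that of the members to 0.96, 0.89 and 0.35. On that scale 0 members were called lower and 23 higher in MUT, and 1 (Eif2b1) lower and 23 higher in GcKO, beside 2.23% lower and 41.3% higher among all genes in MUT and 2.14% and 42.4% in GcKO. All members called higher on the deposited scale were also called higher on this one (7 of 7 in MUT, 6 of 6 in GcKO). All members called lower on the deposited scale (9 in MUT, 8 in GcKO) lay below the shifted median of all genes. The scaling factors were 0.69 to 0.73 in WT, 1.39 to 1.44 in MUT and 1.24 to 1.76 in GcKO. They raised MUT and GcKO against WT for most genes alike, so these 2 outcomes could hardly have been otherwise. After quantile normalization, 1 member was lower and 7 higher in MUT, and 2 were lower and 5 higher in GcKO, beside 6.41% lower and 6.7% higher among all genes in MUT and 5.92% and 6.15% in GcKO. Of the members not called on the deposited scale, 16 in MUT and 17 in GcKO were called higher with the same sum, 2 (Eif4a1 and Eif5a) in MUT and 1 (Eif5a) in GcKO after quantile normalization, and none was called lower. Eif4ebp1, Eif4enif1 and Eif4h in MUT and Eif2b1 and Eif2b2 in GcKO were the calls against WT that held at an adjusted p under 0.05 in every setting run, including each library left out, apart from Eif4enif1 (0.98), which misses a fold change over 2 where that was also asked.

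**Figure D3:**
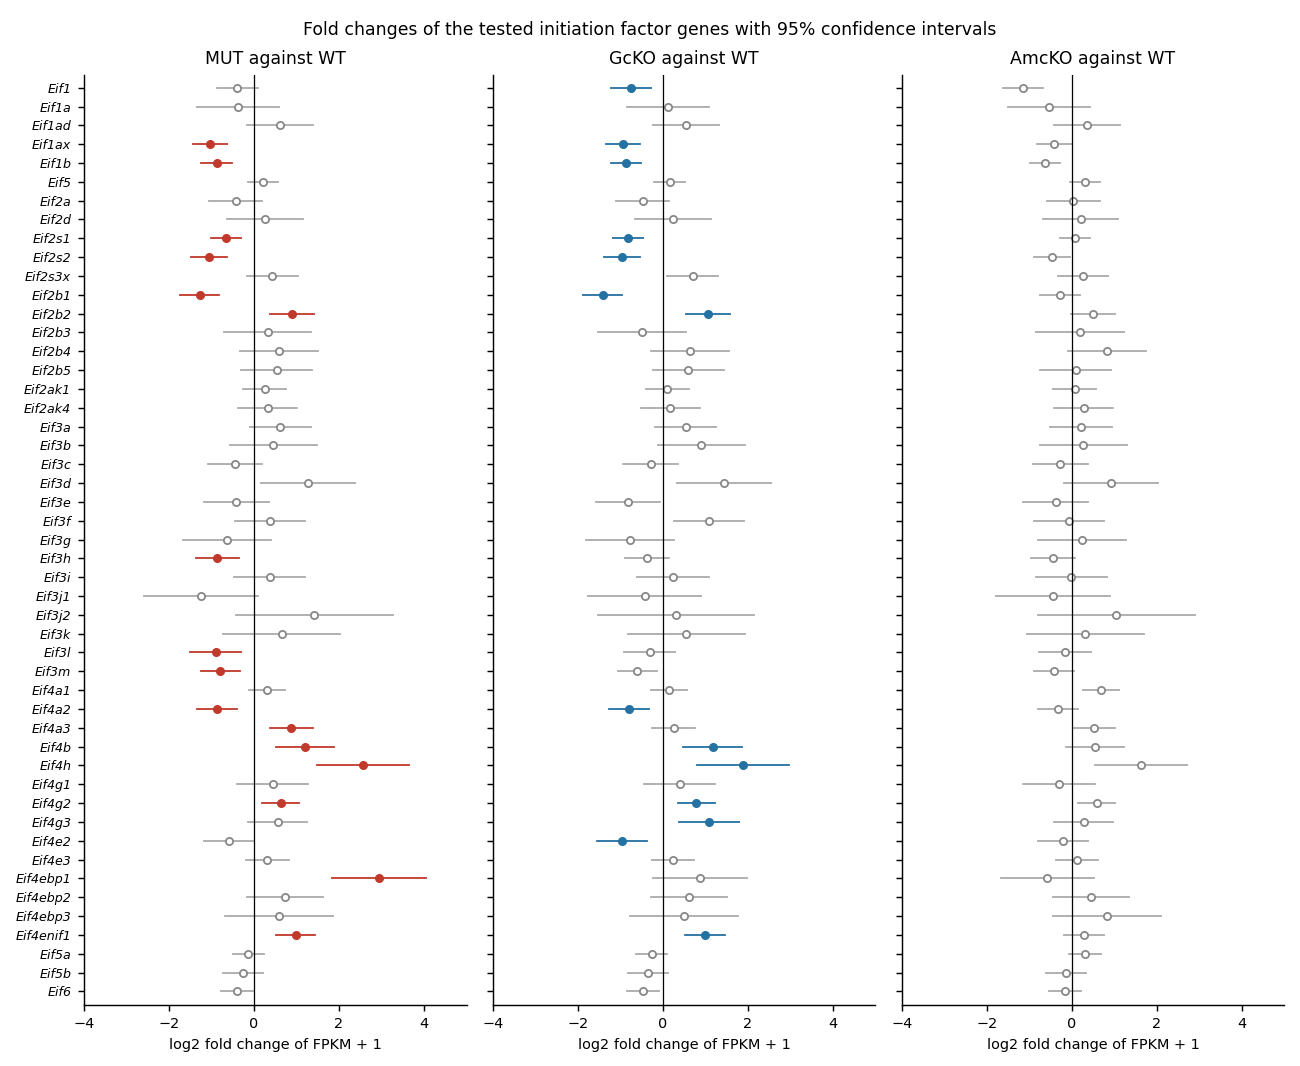
Log2 fold change with its 95% confidence interval for the 49 members tested, for MUT, GcKO and AmcKO against WT, with filled symbols for members called at an adjusted p under 0.05. The 9 and 8 members called lower and the 7 and 6 called higher in MUT and GcKO are spread over the roles, 6 of the lower ones in each change sign under scaling to the same FPKM sum, and no AmcKO symbol is filled.

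The most abundant start-codon factors were lower in both mutants, with 2 of 6 members of this role called lower in MUT and 3 of 6 in GcKO (medians -0.38 and -0.32, none higher), and of these Eif1b in both, Eif1 in GcKO and Eif1ax in GcKO changed sign under scaling to the same FPKM sum. Beside them stood 11.3% of all genes tested called lower in MUT and 11.4% in GcKO. The called genes had means of at least 100 FPKM over the 12 libraries. In that band 68.1% and 71.0% of all genes were lower, with median log2 fold changes of -0.81 and -0.87. eIF1 and eIF1A bind beside the decoding site and hold the ribosome in a scanning state until a start codon is met. Eif1ax, the X-linked gene of eIF1A (chromosome X, 159372178 to 159389928 in GRCm38), had 877, 806 and 1028 FPKM in WT, 469.7, 409 and 445 in MUT, 356, 484 and 591 in GcKO, and 703, 776 and 563 in AmcKO. All MUT and GcKO values lay below all WT values. The log2 fold change was -1.03 (SE 0.19, limma, adjusted p = 0.00186) in MUT and -0.94 (adjusted p = 0.00318) in GcKO, and neither was called with the same FPKM sum (-0.03, adjusted p = 0.846, and 0.09, adjusted p = 0.508) or after quantile normalization (-0.15, adjusted p = 0.419, and -0.06, adjusted p = 0.798). Eif1b, a paralogue of Eif1 (chromosome 9, 120492232 to 120495330), had 792, 821 and 1068 FPKM in WT, 473, 478 and 492 in MUT, 407, 531 and 536 in GcKO, and 579, 658 and 496 in AmcKO. Each mutant value was again below each WT value, and the 3 MUT libraries were close to each other. The log2 fold change was -0.88 (SE 0.16, adjusted p = 0.0022) in MUT and -0.86 (adjusted p = 0.0025) in GcKO, and 0.12 and 0.18 with the same sum.

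Eif1 (chromosome 11, 100319885 to 100322096) had 156, 206 and 154 FPKM in WT, 139, 149 and 105 in MUT, 84.4, 99.9 and 122 in GcKO and 79.0, 99.3 and 57.3 in AmcKO. All 3 other groups lay below WT, and the AmcKO group was the lowest. The call was made in GcKO only (-0.75, SE 0.22, limma, adjusted p = 0.0277; 0.28 with the same FPKM sum), while MUT gave -0.39 (adjusted p = 0.238) and AmcKO -1.14 (adjusted p = 0.0542). The GcKO call was lost without WT replicate 4, 5 or 6 or GcKO replicate 1 or 2 (adjusted p up to 0.125). Eif5, which triggers GTP hydrolysis by eIF2, was at 39.2 ± 1.92 FPKM in WT, 45.6 ± 2.52 in MUT and 44.1 ± 5.28 in GcKO and was not called. Because Eif1 and Eif1b encode closely related proteins, the first 120 bases of both coding sequences are shown, with capitals at the 19 positions where they differ (GENCODE M21, GRCm38). Over 339 coding bases the genes were 81.1% identical, with 64 differences, so that a read of 150 nt spans many of them.
Eif1: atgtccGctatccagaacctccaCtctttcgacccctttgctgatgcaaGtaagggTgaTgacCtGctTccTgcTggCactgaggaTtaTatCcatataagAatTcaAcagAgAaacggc
Eif1b: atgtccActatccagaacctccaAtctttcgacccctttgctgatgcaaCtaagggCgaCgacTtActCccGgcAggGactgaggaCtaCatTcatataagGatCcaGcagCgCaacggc

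The subunits of eIF2, which carries the initiator tRNA, were not called alike. Eif2s1 and Eif2s2, the alpha and beta subunits, were the 2 of 5 tested members of this role called lower in each mutant (medians -0.43 in MUT and -0.47 in GcKO), although Eif2s1 in both and Eif2s2 in GcKO changed sign with the same FPKM sum. Beside them stood 11.3% of all genes tested called lower in MUT and 11.4% in GcKO. The shares were 68.1% and 71.0% at a mean of at least 100 FPKM (Eif2s2), and 26.9% and 27.1% between 20 and 100 FPKM (Eif2s1). Eif2s1 (chromosome 12, 78861819 to 78887010), whose product is the phosphorylated subunit, had 82.9, 86.4 and 77.9 FPKM in WT, 53.6, 52.8 and 48.8 in MUT, 38.5, 50.1 and 51.2 in GcKO, and 81.2, 104 and 78.3 in AmcKO. AmcKO overlapped with WT and both mutants lay below. The log2 fold changes were -0.66 (SE 0.17, limma, adjusted p = 0.0126) in MUT and -0.82 (adjusted p = 0.00357) in GcKO, and 0.32 and 0.20 with the same sum. Eif2s2 had 148, 153 and 186 FPKM in WT, 75.6, 72.9 and 83.2 in MUT, 91.9, 74.2 and 82.7 in GcKO, and 103, 164 and 95.3 in AmcKO. Its log2 fold changes were -1.05 (SE 0.20, adjusted p = 0.00203) in MUT and -0.96 (adjusted p = 0.00373) in GcKO, and -0.07 and 0.07 with the same sum. Eif2s2 overlaps a gene on the opposite strand, and the reads carry no strand, so reads from that gene cannot be told apart from those of Eif2s2.

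The gamma subunit, which binds the tRNA and GTP, came from Eif2s3x at 1.88, 3.19 and 3.20 FPKM in WT, 3.25, 3.80 and 5.08 in MUT, 5.02, 5.23 and 4.80 in GcKO and 4.50, 2.83 and 3.15 in AmcKO. All mutant values were above the highest WT value, but neither difference was called (0.43, limma, adjusted p = 0.301 in MUT and 0.70, adjusted p = 0.0918 in GcKO). Of the other carriers of initiator tRNA, Eif2a was at 11.9 ± 3.61 FPKM and Eif2d at 1.55 ± 1.03 FPKM in WT and neither was called. Of the kinases that phosphorylate Eif2s1, Eif2ak1 was the most abundant, with 13.5, 20.7 and 17.1 FPKM in WT, 20.6, 20.5 and 19.9 in MUT, 21.4, 19.5 and 14.3 in GcKO and 19.0, 13.1 and 22.4 in AmcKO. The groups overlapped, and neither Eif2ak1 (0.25 in MUT, adjusted p = 0.474, and 0.10 in GcKO, adjusted p = 0.81) nor Eif2ak4, the amino acid sensor, was called. Eif2ak3, the kinase known as PERK that responds to stress of the endoplasmic reticulum, had 0.369, 0 and 0.359 FPKM in WT, 0 in all MUT libraries, 0, 0.424 and 0.235 in GcKO and 0.235, 0 and 0.380 in AmcKO, too low to test.

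Eif2b1 (chromosome 5, 124570213 to 124579131) had the lowest log2 fold change of all members in both mutants. Its FPKM were 799.6, 759 and 723 in WT, 308, 350.4 and 286 in MUT, 195, 293 and 403 in GcKO, and 602, 739 and 556 in AmcKO. The MUT and GcKO values lay far below WT, and 1 AmcKO value fell within the WT range. The log2 fold change was -1.27 (SE 0.21, limma, adjusted p = 0.00111) in MUT and -1.41 (adjusted p = 0.000556) in GcKO, and it stayed negative with the same FPKM sum (-0.28 and -0.38), where it was still called in GcKO. Eif2b2, the beta subunit, was higher in both, at 10.8, 8.11 and 5.78 FPKM in WT, 17.6, 13.3 and 16.1 in MUT, 18.6, 17.5 and 17.6 in GcKO and 11.5, 9.43 and 14.9 in AmcKO. No mutant value overlapped with WT. The log2 fold change was 0.88 (SE 0.24, adjusted p = 0.0193) in MUT, where it was lost without WT replicate 6 or MUT replicate 1 or 3 (adjusted p up to 0.0703), and 1.07 (adjusted p = 0.00656) in GcKO. The other 3 subunits were not called, so eIF2B had 1 member lower and 1 higher of 5 in each mutant (medians 0.53 and 0.60).

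Of the 14 eIF3 genes, 3 were called lower in MUT, where all 3 changed sign with the same FPKM sum, and 0 in GcKO, with a median of -0.02 in each, while none was higher. At an adjusted p under 0.05 this was the only role with lower members in MUT and none in GcKO, but no member was called between GcKO and MUT directly. Eif3h had 27.6, 55.0 and 48.6 FPKM in WT, 21.7, 24.5 and 21.9 in MUT, 25.3, 36.9 and 35.5 in GcKO and 33.4, 27.7 and 31.4 in AmcKO. Only the MUT values lay below all WT values (-0.86, SE 0.24, limma, adjusted p = 0.0218; 0.11 with the same sum). Eif3m had 37.1, 40.2 and 51.5 FPKM in WT, 21.6, 26.5 and 24.4 in MUT, 25.2, 28.1 and 30.1 in GcKO and 22.9, 40.4 and 33.8 in AmcKO (-0.79 in MUT, SE 0.21, adjusted p = 0.0187; 0.17 with the same sum). Its GcKO values also lay below all WT values, although GcKO was not called. Eif3l had 10.5, 18.4 and 14.8 FPKM in WT and 5.74, 9.83 and 6.43 in MUT, 9.04, 14.4 and 11.04 in GcKO and 17.2, 10.43 and 11.4 in AmcKO, and its MUT difference (-0.90, SE 0.28, adjusted p = 0.0364; 0.00 with the same sum) was also called after quantile normalization. Each of these 3 calls was lost when any of several libraries was left out, for Eif3h without WT replicate 5 or 6 or any MUT replicate (adjusted p up to 0.0877), for Eif3l without WT replicate 5 or 6 or MUT replicate 1 or 3 (up to 0.131), and for Eif3m without WT replicate 6 or MUT replicate 1 or 3 (up to 0.0698). With 1 library left out, the log2 fold changes stayed negative (-1.15 to -0.67 for Eif3h, -1.11 to -0.73 for Eif3l and -0.89 to -0.66 for Eif3m). Eif3m also overlaps Ccdc73 on the opposite strand. For Eif3d, a subunit that can itself bind the cap, the difference from WT was 1.28 in MUT (adjusted p = 0.0961) and 1.45 in GcKO (adjusted p = 0.0636), neither of them called.

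Eif3j1 and Eif3j2, copies of 1 subunit gene, could not be separated. Their coding sequences were 99.2% identical (783 of 789 aligned bases), and both were deposited with the same merged locus (chromosome 2, 122028578 to 122118386), as was Spg11. In GENCODE M21, Eif3j2 instead lies on chromosome 18 (43475418 to 43477796), outside that locus. Eif3j1 had 1.62, 6.53 and 1.74 FPKM in WT, 0.0436, 1.71 and 0.467 in MUT, 0.0657, 1.61 and 6.91 in GcKO and 1.71, 1.56 and 2.11 in AmcKO. Eif3j2 had 6.40, 0.0561 and 6.04 FPKM in WT, 10.7, 5.44 and 13.1 in MUT, 10.7, 7.35 and 0.0789 in GcKO and 6.21, 13.8 and 3.55 in AmcKO. Libraries high in one were low in the other, with the share of Eif3j2 in their sum going from 0.851 to 99.6%, while the sum stayed between 5.65 and 15.4 FPKM. The values of each copy are therefore uncertain.

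The helicase eIF4A unwinds the leader of the mRNA, with eIF4B and eIF4H as cofactors. Of 5 members of this role, 3 were called higher and 1 lower in MUT, and 2 higher and 1 lower in GcKO (medians 0.88 and 0.25). Among all genes tested, 9.46% were higher and 11.3% lower in MUT, and 8.71% and 11.4% in GcKO. The higher ones had means between 5 and 20 FPKM over the 12 libraries, where 17.4% and 16.8% of all genes were higher. The lower one was Eif4a2, which changed sign with the same FPKM sum. Eif4h (chromosome 5, 134619721 to 134639490) had 2.92, 2.48 and 0 FPKM in WT, 9.75, 11.8 and 19.2 in MUT, 11.4, 7.01 and 6.07 in GcKO, and 5.13, 3.96 and 12.5 in AmcKO. Every value of the other 3 groups lay above WT. On the log2 scale the difference was 2.56 (SE 0.50, limma, adjusted p = 0.00297) in MUT, 1.89 (adjusted p = 0.0167) in GcKO and 1.64 (adjusted p = 0.162) in AmcKO. The GcKO call was lost without WT replicate 6, the library at 0, or without GcKO replicate 1 or 2 (adjusted p up to 0.0983). Eif4b was at 1.31, 2.95 and 3.80 FPKM in WT, 6.61, 8.13 and 6.71 in MUT, 9.46, 7.34 and 4.72 in GcKO and 4.99, 3.66 and 3.81 in AmcKO. Both mutants lay above WT (1.204, SE 0.32, adjusted p = 0.0167 in MUT and 1.17, adjusted p = 0.0187 in GcKO), but the calls were lost without WT replicate 4 or MUT replicate 2 or 3 (adjusted p up to 0.0683), and without WT replicate 4, GcKO replicate 1 or GcKO replicate 2 (up to 0.0914). Eif4a3, a helicase of the exon junction complex, had 11.7, 11.8 and 8.80 FPKM in WT, 22.2, 15.1 and 25.6 in MUT, 13.3, 12.02 and 13.4 in GcKO and 16.7, 12.6 and 18.3 in AmcKO. It was called in MUT only (0.88, SE 0.23, adjusted p = 0.0161), and not without WT replicate 6 or MUT replicate 1 or 3 (up to 0.0687).

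Eif4a1 and Eif4a2, the 2 helicase genes of the cap-binding complex, are paralogues with 77.8% identical coding sequences. Eif4a2 (chromosome 16, 23107444 to 23114136, overlapped by Rfc4 on the opposite strand) had 119, 103 and 114 FPKM in WT, 68.5, 56.0 and 57.9 in MUT, 48.0, 58.7 and 90.6 in GcKO, and 95.6, 103 and 70.8 in AmcKO. Its log2 fold change was -0.87 (SE 0.22, limma, adjusted p = 0.0123) in MUT and -0.81 (adjusted p = 0.0183) in GcKO, and 0.11 and 0.22 with the same FPKM sum. These calls were lost without WT replicate 4 or MUT replicate 2 or 3 (adjusted p up to 0.0586), and without WT replicate 4 or 6 or GcKO replicate 1 or 2 (up to 0.0898). Eif4a1 had 97.3, 82.5 and 82.0 FPKM in WT, 98.9, 116 and 111 in MUT, 101, 121 and 73.7 in GcKO, and 168, 112 and 148 in AmcKO, and was not called (0.32, adjusted p = 0.286 in MUT; 0.15, adjusted p = 0.636 in GcKO; 0.69, adjusted p = 0.147 in AmcKO). With the same FPKM sum Eif4a1 was called higher in MUT (1.30, adjusted p = 0.00101) and GcKO (1.18, adjusted p = 0.00181), and after quantile normalization in MUT (0.78, adjusted p = 0.0358). A ratio within a library does not depend on its scaling. The log2 ratio of Eif4a1 to Eif4a2 was -0.29, -0.31 and -0.47 in WT, 0.52, 1.04 and 0.93 in MUT, 1.05, 1.03 and -0.29 in GcKO, and 0.80, 0.13 and 1.06 in AmcKO. Eif4a2 exceeded Eif4a1 in all WT libraries and in GcKO replicate 3, and the reverse held in the other 8 libraries. The ratio was higher by 1.19 in MUT (exact permutation test, two-sided, p = 0.1, the smallest p that 3 against 3 libraries allow, adjusted p = 0.267 over 4 tests) and by 0.96 in GcKO (p = 0.2, adjusted p = 0.267). For Eif1 and Eif1b, the other pair of 7 listed whose members met a mean of 5 FPKM, the log2 ratio differed from WT by 0.49 in MUT (exact permutation test, p = 0.2, adjusted p = 0.267) and by 0.11 in GcKO (p = 0.8, adjusted p = 0.8).

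**Figure D4:**
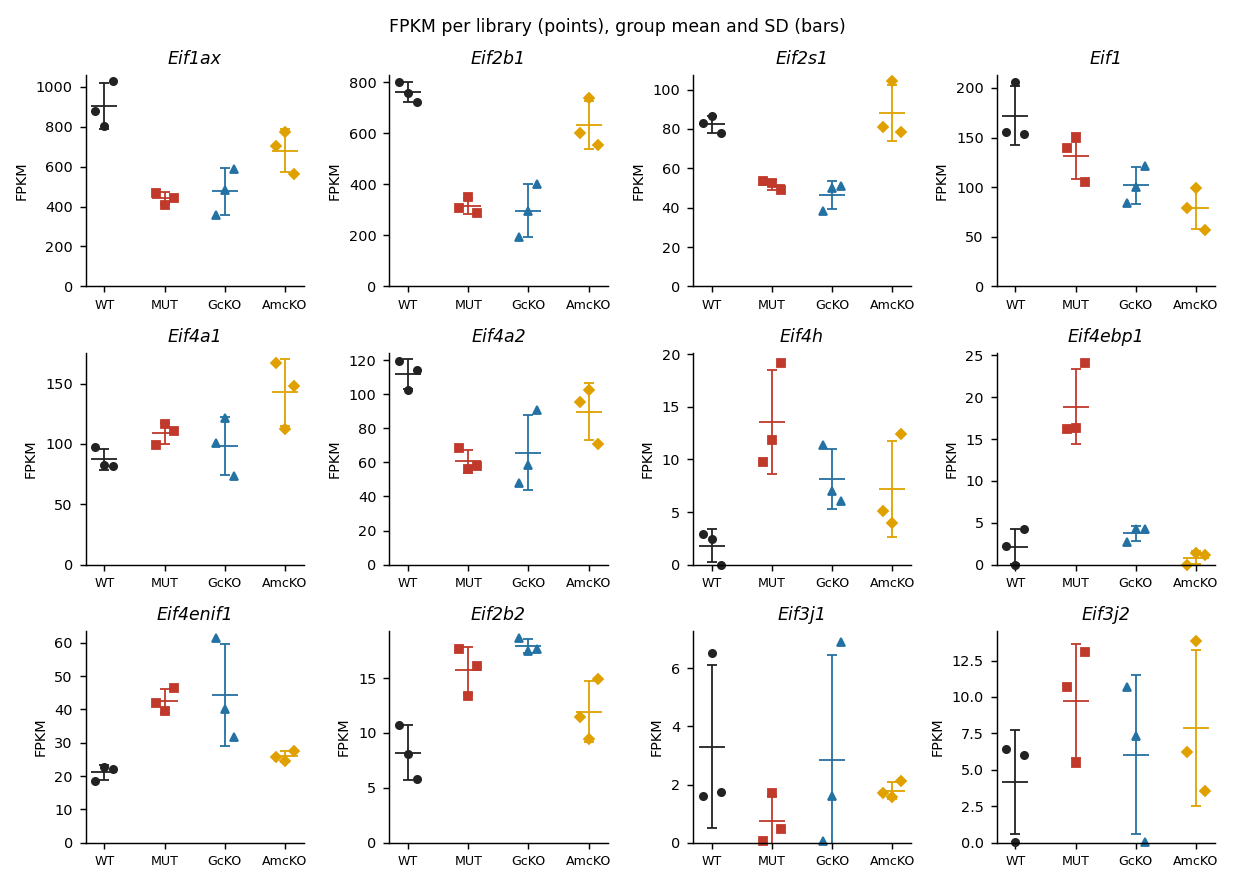
FPKM per library (points) with group mean and SD (bars) for 12 members, each panel with its own axis starting at 0. Eif1ax, Eif2b1, Eif2s1 and Eif4a2 are below WT in MUT and GcKO on the deposited scale (with the same FPKM sum Eif2s1 and Eif4a2 in both and Eif1ax in GcKO turn positive, and Eif1ax in MUT is near 0 at -0.03), Eif4h and Eif4enif1 are above, and Eif4ebp1 is high in the 3 MUT libraries.

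Of the eIF4G scaffolds, which join the cap-binding protein to eIF3, 1 of 3 was higher in MUT and 2 of 3 in GcKO (medians 0.56 and 0.79). Eif4g2, also known as DAP5, which lacks the site for the cap-binding protein, had 9.11, 12.7 and 10.5 FPKM in WT, 16.8, 15.2 and 19.6 in MUT, 23.5, 17.1 and 17.4 in GcKO, and 17.2, 16.4 and 16.0 in AmcKO. All 9 values of the other groups lay above WT (0.63, SE 0.20, limma, adjusted p = 0.0398 in MUT; 0.79, adjusted p = 0.0143 in GcKO; AmcKO not called). The MUT call was lost without WT replicate 4 or 6 or any MUT replicate (adjusted p up to 0.108), and the GcKO call without GcKO replicate 1 (0.055). Eif4g3 had 0.806, 1.22 and 2.61 FPKM in WT, 1.85, 3.64 and 2.48 in MUT, 4.41, 4.01 and 4.11 in GcKO and 1.71, 2.58 and 1.66 in AmcKO. It was called in GcKO (1.09, SE 0.32, adjusted p = 0.0292), but not without WT replicate 4 or 5 or any GcKO replicate (up to 0.0849). Eif4g1, the common form, was at 1.32 ± 1.28 FPKM in WT and was not called.

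Proteins that bind eIF4E or take its place at the cap included the member with the highest log2 fold change in MUT. Eif4ebp1, a 4E-binding protein that blocks the cap-binding complex until mTOR phosphorylates it (chromosome 8, 27260329 to 27276674), had 2.19, 0 and 4.23 FPKM in WT, 16.3, 16.3 and 24.1 in MUT, 2.71, 4.25 and 4.26 in GcKO, and 0, 1.35 and 1.16 in AmcKO. The 3 MUT libraries were far above all 9 others, and GcKO overlapped with WT. Its log2 fold change was 2.94 (SE 0.51, limma, adjusted p = 0.00139) in MUT and 0.87 (adjusted p = 0.254) in GcKO, while the difference between GcKO and MUT itself, -2.06, was not called (adjusted p = 0.164). Eif4ebp2 was listed at 0 in all WT libraries and reached at most 2.13 FPKM in the others. Eif4enif1 (chromosome 11, 3202392 to 3244588, overlapped by Drg1 on the opposite strand), the 4E-transporter that represses mRNAs bound by eIF4E, had 18.7, 22.7 and 22.2 FPKM in WT, 42.1, 39.4 and 46.5 in MUT, 61.4, 40.03 and 31.8 in GcKO, and 25.9, 24.4 and 27.6 in AmcKO. All values of the other groups lay above WT, the mutants by the most (0.98, SE 0.22, adjusted p = 0.00583 in MUT; 0.99, adjusted p = 0.0056 in GcKO).

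Eif4e2, which binds the cap without recruiting eIF4G, had 21.3, 12.6 and 24.0 FPKM in WT, 10.0, 14.3 and 12.04 in MUT, 8.92, 9.14 and 9.08 in GcKO and 20.7, 17.8 and 11.05 in AmcKO. The GcKO values lay below WT and close together (-0.97, SE 0.27, limma, adjusted p = 0.0229), but with the same FPKM sum the difference was -0.0023 (adjusted p = 1.0), and the call was lost without WT replicate 4 or 6 or any GcKO replicate (adjusted p up to 0.0904). Eif4e3 was the most abundant of this role, with 41.8, 48.8 and 42.5 FPKM in WT, 43.3, 57.0 and 69.3 in MUT, 66.6, 49.4 and 44.5 in GcKO and 53.3, 35.3 and 59.4 in AmcKO. The groups overlapped, and no call was made (0.32, adjusted p = 0.354 in MUT and 0.25, adjusted p = 0.481 in GcKO). Of 6 members of this role, 0 were lower and 2 higher in MUT (median 0.66), and 1 lower and 1 higher in GcKO (median 0.56).

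On the deposited scale the late-acting factors were not called in either mutant (0 of 3 tested, medians -0.25 and -0.35), while with the same FPKM sum Eif5a and Eif6 were called higher in both and Eif5b in MUT. Eif5a, the hypusine-carrying factor that helps peptide bond formation, had 279.7, 355 and 262 FPKM in WT, 285, 289 and 242 in MUT, 212, 267 and 266 in GcKO and 418, 306 and 389 in AmcKO. MUT and GcKO overlapped with WT (-0.13, limma, adjusted p = 0.64, and -0.26, adjusted p = 0.301), but Eif5a was called higher with the same FPKM sum (0.87, adjusted p = 0.00171 in MUT and 0.77, adjusted p = 0.00333 in GcKO) and after quantile normalization (0.61, adjusted p = 0.0272, and 0.56, adjusted p = 0.0425). Eif6, which keeps the large ribosomal subunit from joining early, had 66.2, 76.2 and 67.7 FPKM in WT and 51.7, 60.7 and 46.2 in MUT, 41.8, 59.3 and 52.3 in GcKO and 71.9, 58.0 and 59.0 in AmcKO. Neither mutant overlapped with WT, yet the differences were not called (-0.41, adjusted p = 0.12 in MUT and -0.46, adjusted p = 0.0829 in GcKO), and with the same sum Eif6 was higher (0.58, adjusted p = 0.0176, and 0.56, adjusted p = 0.0189). Eif5b, the GTPase of subunit joining, was at 17.2 ± 3.22 FPKM in WT and 14.2 ± 1.34 in MUT (-0.25, adjusted p = 0.437, and 0.68, adjusted p = 0.0469 with the same sum).

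Members called lower were mostly abundant transcripts, and so were lower transcripts in general. Among the 882 genes with a mean of at least 100 FPKM over the 12 libraries, 68.1% were called lower in MUT (median log2 fold change -0.81) and 71.0% in GcKO (-0.87). Of the 7 members in this band, 4 were lower in MUT and 5 in GcKO, with medians of -0.88 and -0.86, and with the same FPKM sum Eif1b turned positive in MUT and Eif1, Eif1b, Eif1ax and Eif2s2 in GcKO, while Eif2b1 stayed negative in both. Between 20 and 100 FPKM, 26.9% of all genes were lower in MUT and 27.1% in GcKO, beside 4 and 2 of 8 members. Between 5 and 20 FPKM, 17.4% and 16.8% of all genes were higher, beside 6 and 4 of 16 members, and 8.12% and 7.41% were lower, beside 1 member in each. Under 5 FPKM, 7.09% and 6.49% of all genes were higher, beside 0 and 1 of 18 members.

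**Figure D5:**
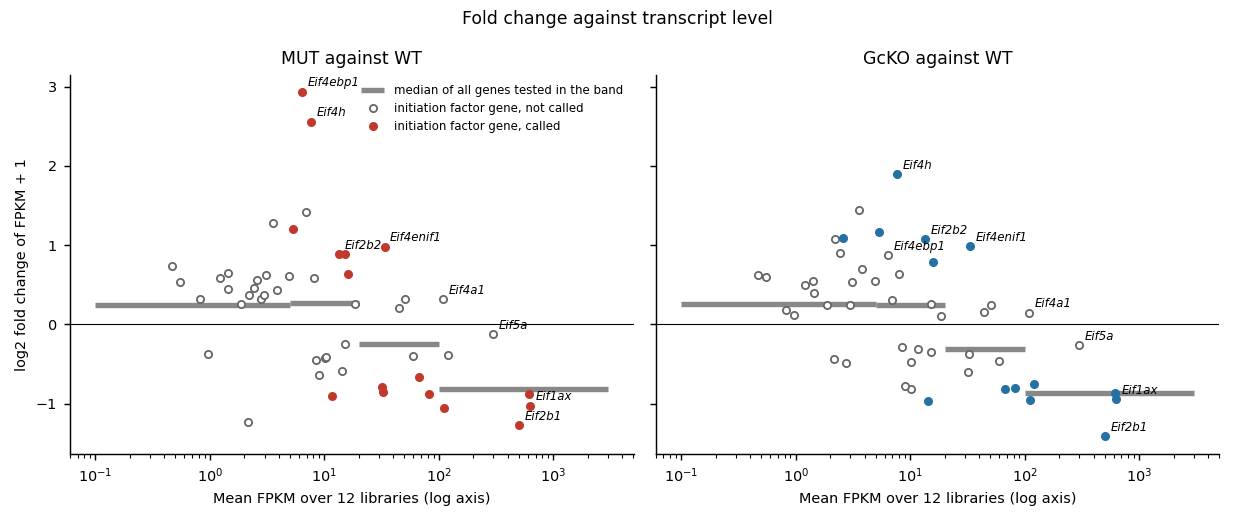
Log2 fold change against mean FPKM over the 12 libraries (log axis) for the members in MUT and GcKO against WT, with grey bars at the median of all genes tested in each of 4 abundance bands. Members lie around the grey bars, which fall from above 0 at low FPKM to -0.81 and -0.87 at 100 FPKM and more on the deposited scale.

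Letters of known promoter elements were sought in the 250 bases before the RefSeq start of 42 members, on both strands. CACGTG, the E-box bound by MYC and USF proteins and its own reverse complement, was present in 8 (19.0%), beside 9.38% of 8526 tested genes and 6.86% of 27025 genes. Of the 7 tested members with it, Eif1b was called lower (a sign that turned with the same FPKM sum) and Eif4h higher in both mutants. Among all genes tested, 11.3% were lower and 9.46% higher in MUT, and 11.4% and 8.71% in GcKO. CCGGAAG, the core bound by ETS factors, was present in 12 (28.6%), beside 15.4% and 7.83%. Of the 11 tested, 4 were called lower in MUT (Eif1b, Eif1ax, Eif3l and Eif3m) and 3 in GcKO (Eif1b, Eif1ax and Eif4e2). Eif1b in both, Eif1ax in GcKO and Eif3l and Eif3m in MUT changed sign with the same sum, while none was called higher. Calls among all genes with the element were not counted, so a link between element and call was not tested. TGATGNAA, letters bound by ATF4 with C/EBP partners, was present in 1 (2.38%, Eif2s3x), beside 2.99% and 3.91%. The members' windows had a median GC content of 61.5%, beside 58.4%. For a lower and a higher member, the searched sequence is shown from RefSeq (GRCm38.p6), that of Eif4h only for the 169 of 250 bases that lie before the GENCODE start, with the element in capitals. That of Eif1ax, chrX:159371928-159372177 on the plus strand, holds CCGGAAG as its reverse complement CTTCCGG, starting 212 bases before the annotated start. That of Eif4h, chr5:134639491-134639659 on the minus strand, holds CACGTG 15 bases before it.
Eif1ax: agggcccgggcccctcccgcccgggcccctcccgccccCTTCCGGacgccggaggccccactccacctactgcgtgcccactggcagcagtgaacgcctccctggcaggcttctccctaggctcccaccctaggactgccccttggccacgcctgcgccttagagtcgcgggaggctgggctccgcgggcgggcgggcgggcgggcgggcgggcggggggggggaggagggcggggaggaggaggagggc
Eif4h: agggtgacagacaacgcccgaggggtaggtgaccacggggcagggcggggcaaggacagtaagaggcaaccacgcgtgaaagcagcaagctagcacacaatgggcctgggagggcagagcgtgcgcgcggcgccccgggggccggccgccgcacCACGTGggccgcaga

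Direct comparisons between the other groups set the mutants against AmcKO oocytes. Between GcKO and MUT, 0 members were called, beside 0.205% of all genes (median -0.05, and 2 members at an unadjusted p under 0.05). In GcKO against AmcKO, 2 members were lower and 0 higher, beside 5.46% of all genes called (4.79% lower and 0.668% higher), namely Eif2s1 (-0.90, limma, adjusted p = 0.00667) and Eif2b1 (-1.14, adjusted p = 0.00783). In MUT against AmcKO, 2 were lower and 1 higher, beside 6.49% (5.07% lower and 1.42% higher), namely Eif2s1 (-0.74, adjusted p = 0.0159), Eif2b1 (-0.999, adjusted p = 0.0134) and Eif4ebp1 (3.51, adjusted p = 0.00145). The member medians were 0.01 and 0.05, beside 0.04 and 0.05 over all genes. Leaving out AmcKO replicate 5 ended the call of Eif2b1 against GcKO (adjusted p = 0.0544), and the MUT calls were lost without MUT replicate 2 or 3 or AmcKO replicate 5 for Eif2s1 (up to 0.0652), and without any MUT replicate or AmcKO replicate 4 or 5 for Eif2b1 (up to 0.087). With the same FPKM sum, Eif2s1 was at -0.17 (adjusted p = 0.375) in GcKO and -0.05 (adjusted p = 0.812) in MUT against AmcKO, so both calls ended, and Eif2b1 was at -0.40 (adjusted p = 0.0404) and -0.30 (adjusted p = 0.103).

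Other genes of translation were counted from lists set beside the members. Of 13 genes of elongation and release, 2 were lower and 1 higher in each mutant (medians 0.20 and 0.25). Eef1e1, an auxiliary protein of the tRNA synthetase complex, was the lowest (971, 987 and 1106 FPKM in WT, 413, 414 and 332 in MUT, 287, 343 and 359.9 in GcKO, 728, 763 and 502 in AmcKO; -1.41, limma, adjusted p = 0.000156 in MUT and -1.63, adjusted p = 9.25e-05 in GcKO). Etf1, the release factor that reads stop codons, was higher (2.73, 3.08 and 3.53 FPKM in WT, 9.62, 7.91 and 7.95 in MUT, 10.26, 7.66 and 7.54 in GcKO, 6.08, 6.83 and 5.85 in AmcKO; 1.21, adjusted p = 0.00233, and 1.198, adjusted p = 0.00243). Of 9 genes of poly(A) binding and reinitiation, 2 were lower and 1 higher in MUT and 3 lower and 1 higher in GcKO (medians -0.17 and -0.51). Paip1, a partner of the poly(A)-binding protein and eIF4A, had 1604, 1371 and 1317 FPKM in WT, 456, 393 and 385 in MUT, 274, 389 and 387 in GcKO and 1686, 1655 and 1288 in AmcKO. Neither mutant overlapped with WT or AmcKO, and the log2 fold changes were -1.80 (adjusted p = 6.16e-05) in MUT and -2.04 (adjusted p = 2.32e-05) in GcKO. The other lower genes of these lists were Eef1d, a subunit of the exchange factor of elongation, at -0.78 and -0.74, and Paip2, an inhibitor of the poly(A)-binding protein, at -0.61 and -0.67, both of which changed sign with the same FPKM sum, and Denr, a reinitiation factor, in GcKO (-1.02). Paip2b was higher, by 0.81 and 1.03. Calls were lost without WT replicate 4 or 5 or MUT replicate 1 or 3 for Eef1d in MUT (adjusted p up to 0.0694), without WT replicate 4 or 5 or GcKO replicate 1 or 2 for Eef1d in GcKO (up to 0.0899), without WT replicate 4 or 5 or any MUT replicate for Paip2 in MUT (up to 0.0983), without WT replicate 4 or GcKO replicate 1 for Paip2 in GcKO (up to 0.0578), and without WT replicate 5 or 6 or GcKO replicate 1 or 3 for Denr (up to 0.0928).

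Of 7 tested genes of eIF2 phosphorylation and its targets, 1 was lower and 3 higher in MUT and 2 lower and 3 higher in GcKO (medians 0.74 and 0.52). Atf4, whose translation rises when eIF2 is phosphorylated, had 15.9, 33.0 and 20.5 FPKM in WT, 96.2, 102 and 122 in MUT, 72.5, 45.5 and 28.1 in GcKO, and 29.8, 23.4 and 39.5 in AmcKO. MUT lay above all others, while GcKO replicate 3 fell within the WT range (2.21, limma, adjusted p = 0.000413 in MUT and 1.00, adjusted p = 0.0413 in GcKO). The GcKO call was lost without WT replicate 4 or 6 or GcKO replicate 1 or 2 (adjusted p up to 0.207). Ppp1r15b, the constitutive cofactor of the eIF2 phosphatase, was higher by 1.06 in MUT and 1.48 in GcKO, the former not without MUT replicate 2 (adjusted p = 0.071). Dnajc3, which inhibits eIF2 kinases, was higher by 1.08 in MUT and 0.77 in GcKO, the latter not without WT replicate 4 or 6 or GcKO replicate 1 or 3 (up to 0.164). Nck1, an adaptor that can bind that phosphatase, had 91.6, 99.9 and 75.9 FPKM in WT, 42.8, 39.8 and 46.9 in MUT, 40.8, 48.9 and 51.0 in GcKO and 66.5, 68.3 and 67.1 in AmcKO (-1.02 and -0.91, the latter 0.11 with the same FPKM sum). Ddit3, the stress gene known as CHOP, had 316, 353 and 501 FPKM in WT, 382, 387 and 319 in MUT, 145, 202 and 258 in GcKO and 299, 418 and 249 in AmcKO, and was lower in GcKO only (-0.96, adjusted p = 0.0123; 0.08 with the same sum), a call lost without WT replicate 6 or GcKO replicate 1 (up to 0.0719).

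Of 8 tested genes of mTOR and MNK signalling, 2 were lower and 1 higher in each mutant (medians 0.14 and 0.43). Rheb, the GTPase that activates mTOR, fell by 0.82 and 0.84 and Rps6, the ribosomal protein phosphorylated downstream, by 1.22 and 0.83 on the log2 scale, although Rheb in both (0.17 and 0.20) and Rps6 in GcKO (0.19) changed sign with the same FPKM sum. The higher ones were Mknk1, a kinase of eIF4E, in MUT (0.64) and Pdcd4, an inhibitor of eIF4A, in GcKO (0.68), lost without WT replicate 6 or MUT replicate 1 or 3 (adjusted p up to 0.0669) and without WT replicate 5 or 6 or GcKO replicate 2 (up to 0.0867). Of 8 tested mitochondrial translation factors, 1 (Gfm2, a ribosome recycling factor) was higher in each mutant, by 1.68 and 1.23, and of the 2 genes that make hypusine on eIF5A, 0 were called. The Gfm2 call in GcKO was lost without WT replicate 5 or GcKO replicate 1 or 2 (limma, adjusted p up to 0.0732), and that of Rps6 in GcKO without GcKO replicate 1 or 2 or any WT replicate (up to 0.167). In AmcKO, 0 genes of these lists were called.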

How the data were processed

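RNA-Seq libraries were made by the study from 20 oocytes each. The authors aligned trimmed paired reads of 150 nt to mm10 with TopHat2 2.0.13 and deposited FPKM values, normalized with Cufflinks 2.2.1, for 24255 genes in 12 libraries. Which gene annotation was used is not given in the sources used here. Columns of the authors' own 6 comparisons (log2 fold change, p-value, q-value) were left aside. Smart-seq2 reads carry no strand.

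Genes reaching 1 FPKM in at least 1 library were fitted as log2(FPKM + 1) with limma 3.58.1 (R 4.3.3), with a variance trend, all 4 groups together and Benjamini-Hochberg adjustment over 11233 genes. Python 3.11.15, numpy 2.4.6, pandas 2.3.3, scipy 1.17.1 and matplotlib 3.10.9 served for tables, exact permutation tests and figures. The code was tested on simulated data. Alternatives changed the pseudocount, filter, scaling, variance trend, groups fitted, fold minimum and libraries.

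The members, roles and lists were chosen with earlier results of these data known. Values in every library were given for the most abundant member of each role, the 5 largest called changes in each direction against WT, the paralogue pairs and Eif2s3x and Eif2s3y. Some further called members were added after their values were seen. Other translation genes were named where called, up to 3 in each direction per list. Coordinates come from GENCODE M21 and upstream sequences from RefSeq, which held 42 of the 53 members.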

Additional observations from a re-analysis of the deposited data

Results flagged for a closer look

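For 3 members, the change against WT differed between a mutant and the AmcKO group in the direct comparison, in which WT drops out (limma, adjusted over all genes). Eif2s1 was lower than in AmcKO by a log2 fold change of -0.90 in GcKO (adjusted p = 0.00667) and -0.74 in MUT (adjusted p = 0.0159). Eif2b1 was lower by -1.14 in GcKO (adjusted p = 0.00783) and -0.999 in MUT (adjusted p = 0.0134). Eif4ebp1 was higher in MUT by 3.51 (adjusted p = 0.00145), with 16.3, 16.3 and 24.1 FPKM in MUT beside 0, 1.35 and 1.16 in AmcKO. With libraries scaled to the same FPKM sum, both Eif2s1 calls ended (-0.17, adjusted p = 0.375 in GcKO and -0.05, adjusted p = 0.812 in MUT), as did that of Eif2b1 in MUT (-0.30, adjusted p = 0.103), while Eif2b1 in GcKO was still called (-0.40, adjusted p = 0.0404). The 2 members lower in each comparison are 4.1% of the 49 tested, beside 4.79% and 5.07% of all genes.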

How the results depend on the processing

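With no filter on low values, 5 members were lower in MUT, 5 were lower and 3 higher in GcKO, and 1 was called in GcKO against AmcKO. With the same FPKM sum, 0 were lower and 23 higher in MUT, 1 lower and 23 higher in GcKO, and 13 and 10 were called in GcKO and MUT against AmcKO. With quantile normalization, 1 was lower in MUT, 2 in GcKO, and 1 was called in GcKO against AmcKO. With only the 2 groups compared, 3 were higher in MUT, 4 lower and 1 higher in GcKO, and 0 were called in GcKO against AmcKO. With a fold change over 2 as well, 3 were lower and 3 higher in MUT, 1 was lower in GcKO, and 1 was called in each of GcKO and MUT against AmcKO. At a mean of at least 5 FPKM, 1 was lower in AmcKO, and 4 and 7 were called in GcKO and MUT against AmcKO. At a pseudocount of 0.1 and with median-of-ratios scaling, 1 was lower in AmcKO, namely Eif1 (limma, adjusted p = 0.0445 and 0.0492, and between 0.0352 and 0.209 over all alternatives). Without the variance trend, 1 was called in each of GcKO and MUT against AmcKO. The cause was not tested.

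With each library left out in turn, 5 to 8 members were lower and 3 to 8 higher in MUT, 5 to 7 lower and 2 to 6 higher in GcKO, 0 to 1 lower and 0 to 0 higher in AmcKO, and 0 to 0, 1 to 5 and 1 to 3 were called in GcKO against MUT, GcKO against AmcKO and MUT against AmcKO. The difference in the log2 ratio of Eif4a1 to Eif4a2 ran from 1.08 to 1.34 in MUT and from 0.73 to 1.40 in GcKO, and that of Eif1 to Eif1b from 0.28 to 0.68 in MUT and from -0.10 (without WT replicate 6) to 0.30 in GcKO.

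With the same FPKM sum, log2 fold changes turned positive in MUT for Eif1b (0.12), Eif2s1 (0.32), Eif3h (0.11), Eif3l (0.0010), Eif3m (0.17), Eif4a2 (0.11), Eef1d (0.19), Paip2 (0.39) and Rheb (0.17). In GcKO they did so for Eif1 (0.28), Eif1b (0.18), Eif1ax (0.093), Eif2s1 (0.20), Eif2s2 (0.074), Eif4a2 (0.22), Eef1d (0.28), Paip2 (0.36), Rheb (0.20), Ddit3 (0.076), Nck1 (0.11) and Rps6 (0.19). With quantile normalization, they did so for Paip2 (0.28 in each) and for Eif1b in GcKO (0.039). Of the 65 single-gene calls, over members and other translation genes, 23 were lost with no filter, 24 with only the 2 groups and 12 without the trend. With quantile normalization 28 were lost besides the 3 that changed sign. With the same FPKM sum 10 were lost besides the 21 that changed sign. With median-of-ratios scaling, whose factors were all close to 1, all 65 were kept.

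A replicate block could be fitted only between groups that share numbers, and it left 0 members called in AmcKO against WT and in GcKO against MUT. The numbers did not pair the samples, the correlations of same-numbered libraries running from -0.0413 to 0.0405, and 1 of 3 libraries in each pair of groups correlated best with its own number. No depth is known for FPKM values, so low members cannot be given an interval.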
